A study of Mus musculus with 3 samples.

Results

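A set of 9 genes was followed through 3 single-cell RNA libraries of regenerating mouse muscle. They are Alpl, Hmcn2, Ces1d, Vwa1, Adamtsl2, Crispld2, Hsd11b1, Shisa3 and Sorl1. They had been chosen because they marked a group of fibro-adipogenic progenitors (FAPs) that took a larger share of cells in old than in young muscle in these same libraries. Their levels between young and old, and their detection in the same FAPs, are therefore descriptions of these libraries and support nothing about them. The files list 32285 features, of which 25499 had at least 1 transcript count in a retained cell, and all 9 genes were among them. No gene was lost to a filter.

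The samples were cell suspensions of tibialis anterior muscle of C57/BL6J mice, taken 4 days after an injection of barium chloride, a salt that kills muscle fibres and leaves the stem cells to rebuild them. The young PBS library was from mice aged 3 to 4 months given saline after the injury. The old PBS library was from mice aged 24 to 26 months given the same, and the old rMETRNL library from mice of that age given recombinant meteorin-like protein, a secreted factor, into the muscle. Every group was thus injured, and each is 1 library made from pooled mice. With 1 library in a group no test between groups was possible. Each interval below is a 95% interval that covers counting error only, and a difference beyond it is one between libraries, with the variation among mice unknown.

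FAPs are the connective tissue cells that lie between muscle fibres. They carry the receptor Pdgfra, lack the blood cell marker Ptprc and the endothelial marker Pecam1, and after injury they proliferate, deposit matrix and send signals to the stem cells before the tissue returns to rest. Several kinds are recognised at rest, among them matrix-rich cells of the parenchyma and cells with Pi16 and Dpp4 that line the fascia. By role, the 9 genes fall into matrix and secreted proteins (Hmcn2, Vwa1, Adamtsl2 and Crispld2), enzymes (Alpl, Ces1d and Hsd11b1) and membrane proteins that steer other receptors or cargo (Shisa3 and Sorl1).

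The files held 12168, 12568 and 14012 cell barcodes in young PBS, old PBS and old rMETRNL, with 218059089, 179295668 and 228966697 transcript counts (unique molecular identifiers, UMIs). Between 58 and 80 barcodes were shared by any 2 libraries, at most 0.657% of a library. After a filter on genes (500 or more) and on mitochondrial UMIs (under 10%), 11403, 11058 and 12786 cells were retained. Those with at least 2 Pdgfra UMIs and none of Ptprc and Pecam1 were taken as FAPs and are called FAP-gate cells: 1264, 1028 and 1323 cells, with medians of 26355, 22784 and 25090 UMIs. Cells of 8 other classes were set by gates on their own markers. Within FAP-gate cells the red cell transcripts, which these cells do not make, summed to 125, 18 and 110 CPM in the same order, CPM being the UMIs of a gene scaled to a common total for the class, and skeletal muscle transcripts to 255, 259 and 126. The libraries therefore differed in RNA of other sources, and the part of this in the values below was not tested.

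The genes lie on 6 chromosomes. In the GENCODE M21 annotation of GRCm38, the build that the labels name as mm10, Alpl spans chr4:137741733-137796384 and Vwa1 chr4:155768149-155774698, both on the minus strand. Hmcn2 (chr2:31314415-31460738) and Adamtsl2 (chr2:27079379-27108981) lie on the plus strand. Ces1d (chr8:93166068-93197838) lies on the minus strand and Crispld2 (chr8:119992438-120052793) on the plus strand. Hsd11b1 (chr1:193221634-193264075) and Sorl1 (chr9:41964720-42124297) are on the minus strand, and Shisa3 (chr5:67607882-67623552) is on the plus strand. Annotated genes on the same strand overlap Ces1d, Crispld2 and Hsd11b1, and Ces1d has close copies in the same family, so reads could be split or shared there and these 3 levels are less certain. The Lamb3 gene overlaps Hsd11b1 on the other strand.

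The promoter windows of 3 genes are shown because they differ in the core letters that mark a start of transcription, and because Alpl has 2 starts. They are from RefSeq on GRCm38.p6, hold 250 bases before and 50 bases from the start, and are written 5′ to 3′ on the gene's strand. Capitals mark 3 motifs: TATAAA on the gene's strand (the TATA box), GGGCGG or CCGCCC (the GC box, both strands) and AGAACA or TGTTCT (a half-site of the glucocorticoid receptor, both strands).
Adamtsl2, chr2:27079129-27079428, plus strand: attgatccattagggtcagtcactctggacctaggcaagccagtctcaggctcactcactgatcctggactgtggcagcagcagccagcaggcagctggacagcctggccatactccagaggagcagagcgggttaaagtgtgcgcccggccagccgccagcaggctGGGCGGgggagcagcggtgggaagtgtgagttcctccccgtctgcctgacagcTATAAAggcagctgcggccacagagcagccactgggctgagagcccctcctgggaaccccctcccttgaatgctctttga
Alpl, upstream start, chr4:137796335-137796634, minus strand: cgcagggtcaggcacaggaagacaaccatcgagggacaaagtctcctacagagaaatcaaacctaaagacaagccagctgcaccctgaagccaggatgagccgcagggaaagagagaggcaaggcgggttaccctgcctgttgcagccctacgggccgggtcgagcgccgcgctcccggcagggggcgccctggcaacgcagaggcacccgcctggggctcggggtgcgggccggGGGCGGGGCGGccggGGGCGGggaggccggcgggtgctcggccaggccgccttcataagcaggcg
Alpl, downstream start, chr4:137766426-137766725, minus strand: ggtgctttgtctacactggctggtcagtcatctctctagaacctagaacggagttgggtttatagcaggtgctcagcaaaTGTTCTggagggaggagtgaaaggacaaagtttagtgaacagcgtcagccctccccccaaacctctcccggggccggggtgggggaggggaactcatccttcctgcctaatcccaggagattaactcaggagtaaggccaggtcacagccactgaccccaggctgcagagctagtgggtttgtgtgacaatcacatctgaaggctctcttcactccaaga
Shisa3, chr5:67607633-67607932, plus strand: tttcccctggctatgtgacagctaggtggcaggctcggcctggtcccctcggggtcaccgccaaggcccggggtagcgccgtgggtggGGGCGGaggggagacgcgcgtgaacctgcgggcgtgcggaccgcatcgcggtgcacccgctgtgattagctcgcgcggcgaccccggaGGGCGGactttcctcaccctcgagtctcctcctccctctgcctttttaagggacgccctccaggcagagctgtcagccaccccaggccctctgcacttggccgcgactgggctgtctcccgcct
Promoter windows were matched for 7 of the 9 genes, with 9 windows in all, since Alpl and Sorl1 each had 2. The TATA box was in 1 of the 9 windows, that of Adamtsl2, where it begins 30 bases before the start. It was in 8.32% of all 32851 windows of this length. The GC box was in 4 windows (Adamtsl2, 1 each of Alpl and Sorl1, and Shisa3) against 35.7% of all windows, and in the upstream Alpl window 2 of its 3 matches share 1 base. The half-site was in the downstream windows of Alpl and Sorl1, against 19% of all windows. A match is a run of letters and no evidence of binding. The libraries count transcript ends, so they do not tell which Alpl or Sorl1 start was used.

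The 9 genes differed in the class where their level was highest. By the mean CPM of the 3 libraries Hmcn2, Ces1d and Adamtsl2 were highest in FAP-gate cells, and the other 6 were higher in another class. Hmcn2 encodes hemicentin 2, a very large matrix protein. In the order young PBS, old PBS, old rMETRNL, which holds for every set of 3 values from here on, its level in FAP-gate cells was 15.9, 69.9 and 24.2 CPM, and the next class, tenocytes, had 0.989, 14.8 and 14.5 CPM. The ranges of these neighbours did not overlap. Adamtsl2, a secreted protein that binds fibrillin and has no protease activity, was at 2.51, 8.96 and 2.21 CPM in FAP-gate cells, and its range overlapped that of pericytes and smooth muscle cells (0 to 4.7 CPM). Ces1d, a carboxylesterase that hydrolyses triacylglycerol, was at 0.608, 3.93 and 2.04 CPM and overlapped tenocytes, where 3 UMIs in old PBS were all there was.

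Vwa1 and Alpl were foremost genes of other cells. Vwa1 encodes a matrix protein with a von Willebrand factor A domain, found in basement membranes. It reached 188, 229 and 318 CPM in glial cells and 154, 122 and 195 CPM in endothelium, whose ranges overlapped, against 5, 11.4 and 6.1 CPM in FAP-gate cells. Alpl, the tissue-nonspecific alkaline phosphatase that removes the mineralisation inhibitor pyrophosphate, was at 28.6, 51.2 and 28 CPM in endothelium and at 1.3, 3.03 and 1.02 CPM in FAP-gate cells. Endothelium held 57.7%, 64.3% and 67.2% of all Alpl UMIs in retained cells, and FAP-gate cells 9.34%, 14.4% and 7.98%. The endothelial level was also the highest in old PBS, so that old PBS led in both classes.

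Crispld2, a secreted cysteine-rich protein, was highest in tenocytes at 228, 287 and 283 CPM. Pericytes and smooth muscle cells came next at 56.7, 88.9 and 222 CPM, and FAP-gate cells had 41.1, 100 and 50.9 CPM. The ranges of the last 2 overlapped. In pericytes and smooth muscle cells the old rMETRNL library was the highest, whereas in FAP-gate cells it lay below old PBS. Hsd11b1, which regenerates active glucocorticoid inside the cell, was highest in T and NK cells at 73.4, 66.6 and 78 CPM. FAP-gate cells followed with 30.9, 53.5 and 33 CPM and their range lay wholly below. The remaining classes were under 15 CPM. T and NK cells and tenocytes were few (93 to 156 and 89 to 143 cells per library), and FAP-gate cells held 58.6%, 63.6% and 64.6% of all Hsd11b1 UMIs and 48.5%, 54% and 45.2% of all Crispld2 UMIs.

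Sorl1, a sorting receptor that works with the retromer coat, was a gene of blood cells here. It was at 52.1, 65.8 and 66.6 CPM in T and NK cells, 41.7, 46.6 and 34.2 CPM in macrophages and monocytes, and 32.4, 33.7 and 34.1 CPM in dendritic cells. FAP-gate cells had 0.746, 2.99 and 1.28 CPM, and macrophages and monocytes held between 78.6% and 82.7% of all its UMIs. Shisa3, which holds Wnt and FGF receptors back in the endoplasmic reticulum, was sparse everywhere. It was at 0.525, 1.51 and 0.539 CPM in FAP-gate cells and at 1.18, 1.86 and 0.185 CPM in endothelium, with overlapping ranges, and its first place in glial cells rested on 1 UMI in old PBS. FAP-gate cells held 45.2%, 45.1% and 65.5% of its UMIs.

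**Figure D1:**
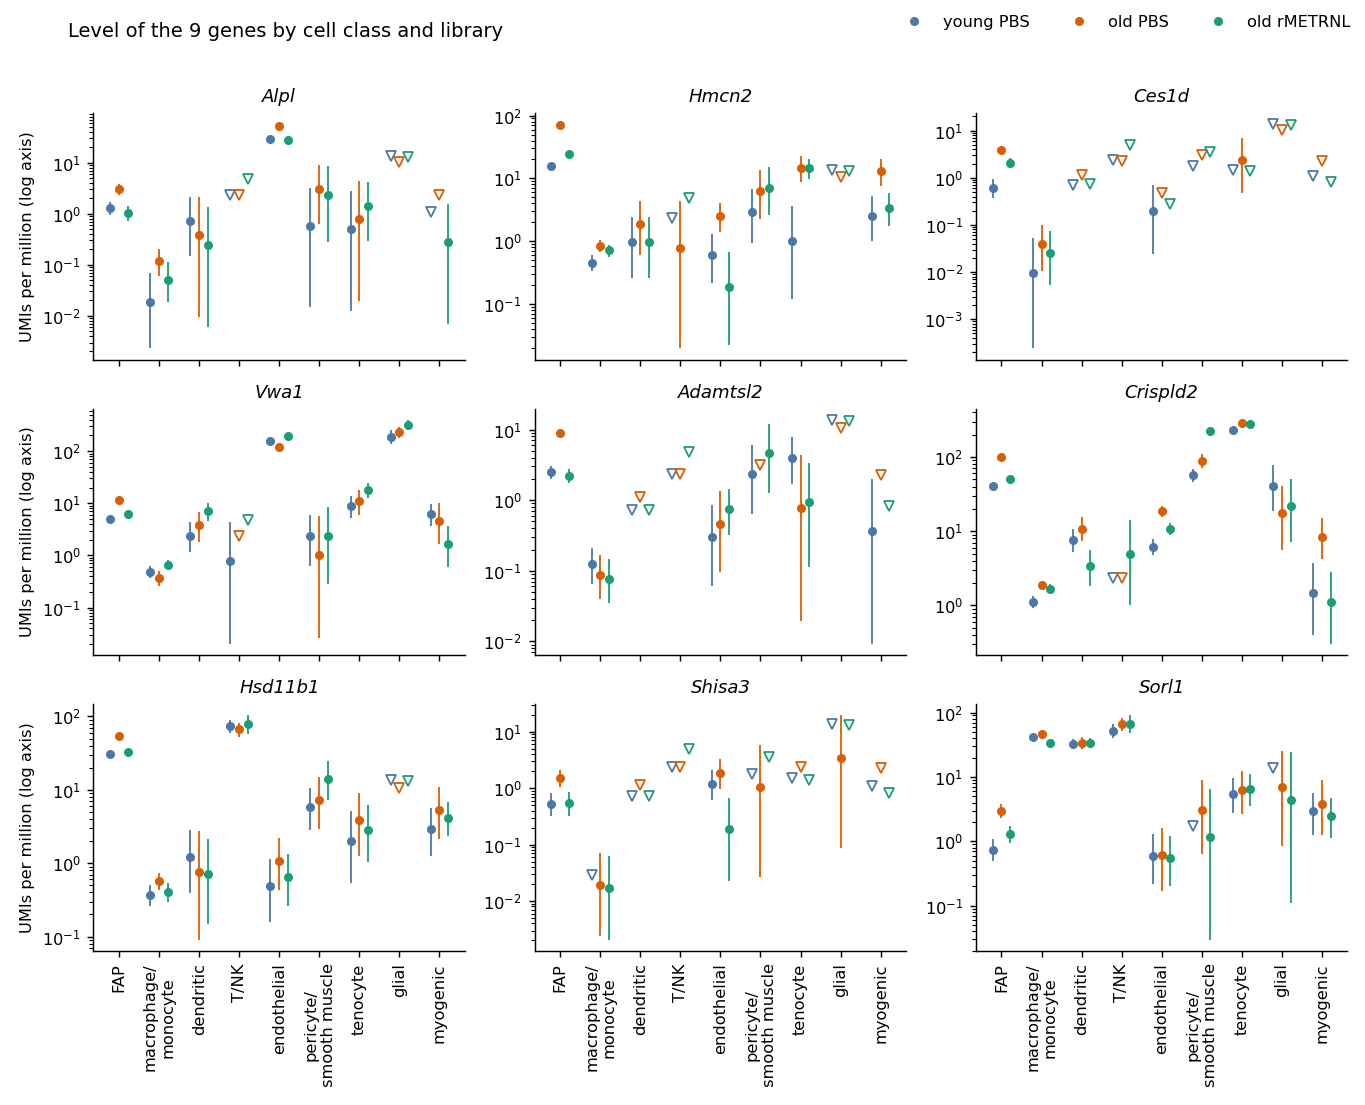
Level of each gene (CPM, log axis) in 9 cell classes, with 1 point per library and 95% Poisson intervals as lines. Open triangles mark a class with 0 UMIs and stand at the level of 3 UMIs. Alpl and Vwa1 stand highest in endothelial or glial cells, Sorl1 in blood cells, and Hmcn2 in FAPs.

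Within FAP-gate cells all 9 genes were higher in old PBS than in young PBS and all 9 were lower in old rMETRNL than in old PBS. The genes had been chosen on the first of these contrasts and both contrasts share the old PBS library, so the second is not independent of the choice either. In the first contrast 9 of 9 passed a 1.5-fold ratio upward, as did 7.45% of the 14769 genes with at least 20 UMIs, and 0 of 9 passed it downward, as did 8.5%, and the median ratio was 2.88 against 0.974 over all genes. In the second, 9 of 9 passed it downward, as did 5.93% of 14666 genes, and 0 of 9 upward, as did 4.84%, with a median ratio of 0.428 against 1.01. Pdgfra, the gate's own gene, was at 225, 298 and 290 CPM.

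The matrix and secreted genes are given first. Hmcn2 gave 575, 1709 and 854 UMIs in young PBS, old PBS and old rMETRNL, a ratio of 4.4 (4 to 4.84) between old PBS and young PBS and of 0.347 (0.319 to 0.377) between old rMETRNL and old PBS. Crispld2 gave 1486, 2448 and 1795 UMIs and ratios of 2.44 (2.29 to 2.6) and 0.509 (0.478 to 0.541). For both, the old rMETRNL level lay between the other 2 libraries and nearer to young PBS. Adamtsl2 gave 91, 219 and 78 UMIs and ratios of 3.56 (2.78 to 4.6) and 0.247 (0.188 to 0.321). Vwa1 gave 181, 279 and 215 UMIs and ratios of 2.28 (1.89 to 2.77) and 0.535 (0.445 to 0.641). The old rMETRNL ratio of Adamtsl2 was the lowest of the 9, and its level there lay just under that of young PBS.

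Of the enzymes, Hsd11b1 had 1117, 1308 and 1162 UMIs and ratios of 1.73 (1.6 to 1.88) and 0.616 (0.569 to 0.667), the nearest to 1 of the 9 genes in both contrasts. Ces1d had 22, 96 and 72 UMIs and the largest ratio of old PBS to young PBS, 6.46 (4.03 to 10.8), with 0.52 (0.378 to 0.714) for old rMETRNL to old PBS. Alpl had 47, 74 and 36 UMIs, with ratios of 2.33 (1.6 to 3.43) and 0.337 (0.22 to 0.509). In young PBS 13 of the 47 Alpl UMIs came from 1 cell, and without the cell richest in Alpl in each library the first ratio was 2.92. The membrane proteins were as sparse. Sorl1 had 27, 73 and 45 UMIs and ratios of 4 (2.54 to 6.47) and 0.428 (0.288 to 0.628), and Shisa3 had 19, 37 and 19 UMIs and ratios of 2.88 (1.62 to 5.31) and 0.356 (0.193 to 0.635).

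Set against young PBS, the old rMETRNL library was above 1.5-fold for 3 of the 9 genes and below it for none, where 4.73% of 14951 genes passed upward and 6.57% downward. These were Hmcn2 (1.52, 1.37 to 1.7), Ces1d (3.36, 2.06 to 5.69) and Sorl1 (1.71, 1.04 to 2.87). The other 6 ratios ran from 0.786 for Alpl to 1.24 for Crispld2, and the intervals of Alpl, Vwa1, Adamtsl2, Hsd11b1 and Shisa3 held 1. In summed counts fewer cells with a gene and less RNA in each cell cannot be told apart, and the next counts are by cell.

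**Figure D2:**
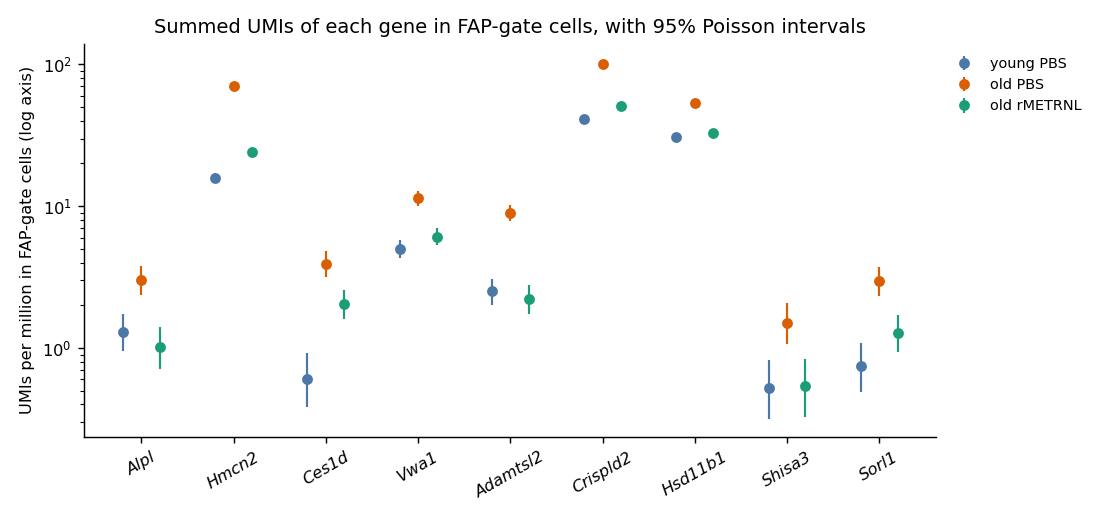
Level of each of the 9 genes in FAP-gate cells (CPM, log axis) with exact 95% Poisson intervals, 1 point per library. For every gene the old PBS point is the highest, for example 69.9 CPM for Hmcn2 against 15.9 in young PBS and 24.2 in old rMETRNL.

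To count cells at equal depth, each FAP-gate cell was reduced at random to 5000 UMIs, and 7, 31 and 35 shallower cells were left out. At least 3 of the 9 genes were then detected in 19 of 1257 young PBS cells (1.51%, 0.912 to 2.35). The counts were 102 of 997 for old PBS (10.2%, 8.42 to 12.3) and 50 of 1288 for old rMETRNL (3.88%, 2.89 to 5.09). These are called member-rich cells. The share was 6.77 times that of young PBS in old PBS (4.12 to 11.7) and 2.57 times in old rMETRNL (1.49 to 4.61), and the old rMETRNL share was 0.379 of that of old PBS (0.265 to 0.537). The intervals of the shares did not overlap. Without thinning the shares were 10%, 25.6% and 12.2%, and the ratio of old rMETRNL to young PBS was 1.21 (0.954 to 1.54), whose interval held 1.

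The same count in macrophage and monocyte cells, which should lack most of these genes, was 0 of 6177, 0 of 5687 and 1 of 6603 cells. A count of 0 allows up to 0.0486% and 0.0528% in the first 2, taken as 3 cells of the total (exact upper limits 0.0597% and 0.0648%). Median depth before thinning was 14428, 14954 and 14605 UMIs there. At least 1 of the genes was seen in 15.6% to 20.5% of these cells, mostly Sorl1, which was in 18.3%, 19.3% and 14.4% of them. For the other 8 genes at most 0.615% of macrophages and monocytes had a UMI. Crispld2 had one in 15.4%, 30.9% and 20.7% of FAP-gate cells, Hmcn2 in 7%, 22.1% and 10.3%, and Shisa3 in 0.239%, 1.2% and 0.311%, the last at 3, 12 and 4 cells. Sorl1, at 0.398%, 2.11% and 0.854% of FAP-gate cells, was below its macrophage share in every library.

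**Figure D3:**
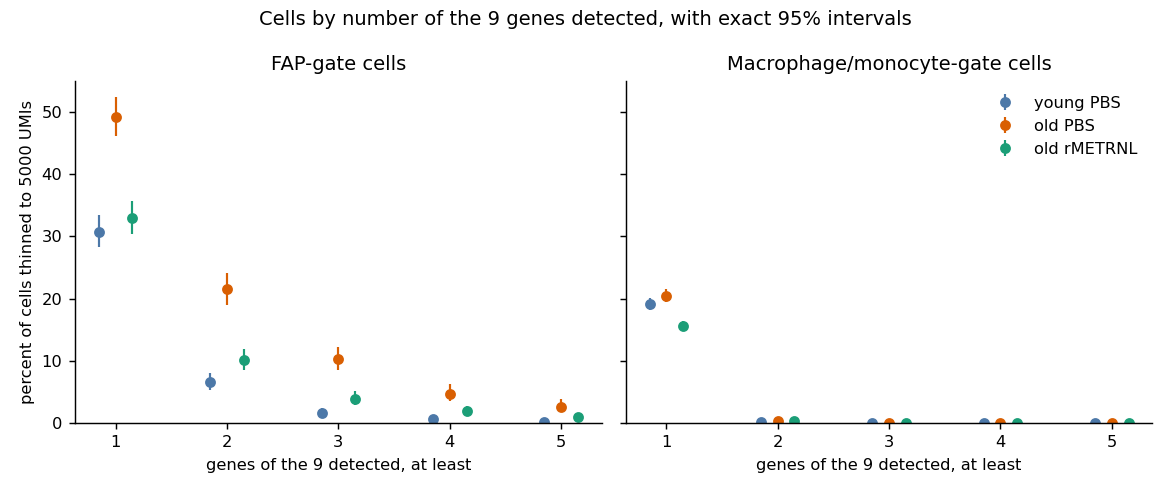
Percent of cells thinned to 5000 UMIs in which at least 1 to 5 of the 9 genes were detected, with exact 95% intervals, in FAP-gate cells (left) and macrophage/monocyte-gate cells (right). At 3 genes the FAP-gate shares are 1.51%, 10.2% and 3.88%, and those of macrophages are at or near 0.

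The 9 genes were found in the same FAP-gate cells more often than their single shares would give if they were unrelated. Since detection together was part of how the genes were chosen, this is a description. Among the 36 pairs, 26 had at least 1 cell expected in old PBS, and all 26 were above expectation, with a median of 2.69 times and a range of 1.76 to 6.92. All 10 such pairs in young PBS and all 17 in old rMETRNL were above expectation as well, with medians of 2.46 and 3.51. Without thinning 26 of 28, 35 of 35 and 30 of 31 pairs were above expectation in the 3 libraries, with medians of 1.61, 1.96 and 1.93, so the order of the old libraries depends on the depth. Among the 26 pairs of old PBS the highest was Alpl with Vwa1, seen together in 11 cells where 1.59 were expected. Both are genes that were higher in endothelium. Pairs with under 1 cell expected had ratios up to 18.9, that of Alpl with Shisa3, which were together in 5 cells. The most populated pair, Hmcn2 with Crispld2, was in 126 cells where 68 were expected.

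Each gene was also read in cells sorted by the other 8. Alpl had a UMI in 18.6% of the 102 old PBS cells with at least 3 of the others (11.6 to 27.6) and in 0 of the 506 cells with none of them. Sorl1 had one in 15.8% (9.33 to 24.4) against 0.589%, and Ces1d in 14.4% (8.12 to 23) against 1.36%. Vwa1 had one in 34.9% (24.9 to 45.9) against 2.5%. These 4 rare genes were thus concentrated in the cells that already held others of the list. Hsd11b1 had one in 68.3% (55.3 to 79.4) against 9.8%, and Hmcn2 in 68.4% (54.8 to 80.1) against 11.7%. In young PBS only 11 to 19 cells held 3 of the other 8, and the intervals there were correspondingly wide. Before thinning, FAP-gate cells with at least 3 of the other 8 held 8.59% to 47.4%, 42.4% to 87.8% and 21.1% to 56.4% of a gene's UMIs, over the 9 genes. These cells were 3.96% to 9.89%, 13.6% to 25.3% and 5.97% to 11.9% of FAP-gate cells.

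**Figure D4:**
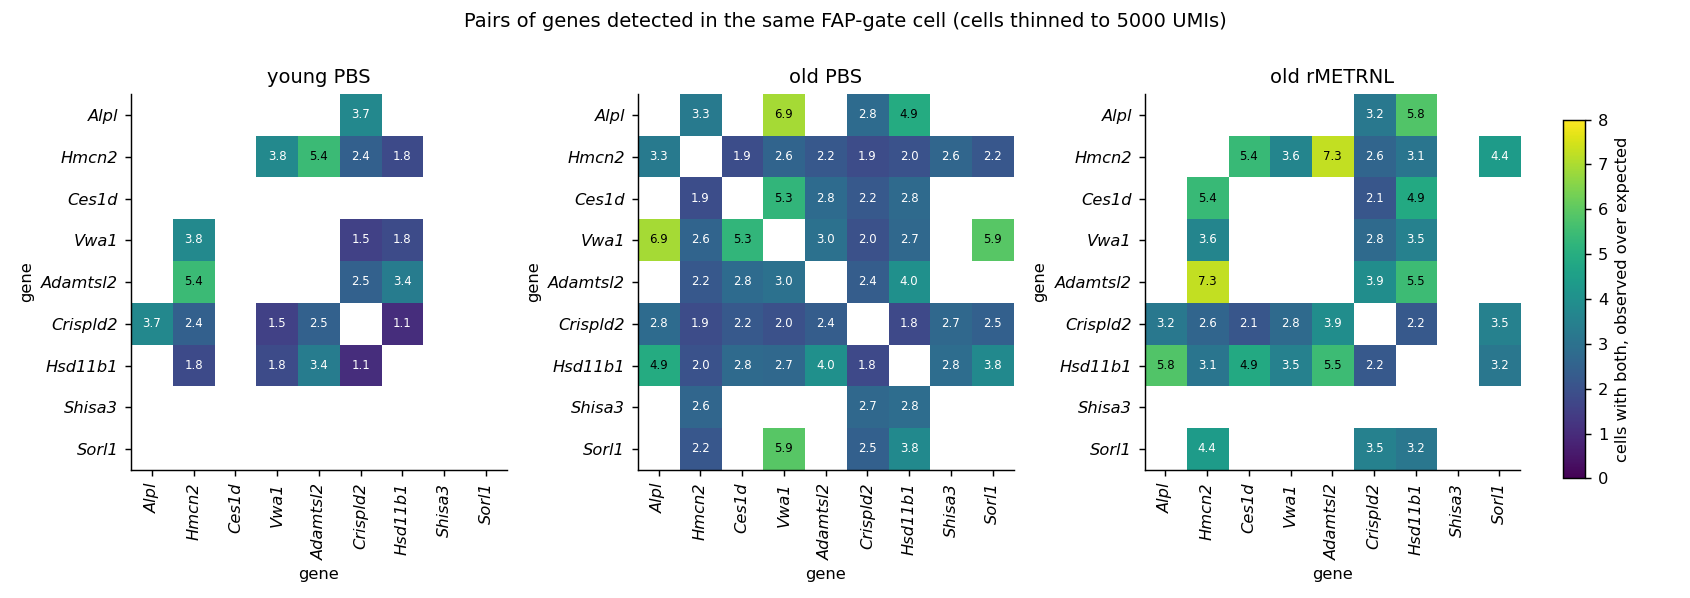
Cells with both genes of a pair, observed over expected, in FAP-gate cells thinned to 5000 UMIs (colour and printed value, blank where under 1 cell was expected). Values run from 1.76 to 6.92 in old PBS, and pairs of Shisa3 are largely blank because few cells had it.

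Member-rich cells were compared with FAP-gate cells in which none of the 9 genes was detected. They were shallower before thinning, with medians of 16727, 15096 and 12596 UMIs against 26948, 26077 and 26806, and had fewer genes, and the part of depth in what follows was not tested. Median Pdgfra counts before thinning were 5 in member-rich cells of every library. They were 5, 6 and 6 in the cells with none of the 9 genes, which were deeper. Of the member-rich cells 3, 10 and 1 also passed the gate of another class. Since the cells were sorted by these genes, all values that follow describe the cells so sorted. In this comparison 17.4% of genes in old PBS and 19.9% in old rMETRNL were at least 1.5-fold higher per cell, and 24.3% and 32% lower.

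Genes of the resident, parenchymal FAP stood out in the member-rich cells. The list of these genes held 12, and the 1 of them that is among the 9 was left out. All 11 others were at least 1.5-fold higher in both old libraries. So were 10 of the 10 measured in young PBS, where 23.5% of all genes were higher. Their median folds were 4.38, 5.22 and 3.5 in old PBS, old rMETRNL and young PBS. Inmt, Smoc2 and Gsn of this list are also among the 20 genes named below, and Col4a1 is also on the basement membrane list. Gsn, which severs actin, stood at 64.8 UMIs per member-rich cell against 11.7 in old PBS and 69.8 against 8.82 in old rMETRNL. Dcn, a small collagen-binding proteoglycan, stood at 86.5 against 25.7 and 93.1 against 23.9. The lipocalin Apod was 4.38-fold and 8.12-fold higher, and the proteoglycan Lum 2.93-fold and 3.69-fold. Across whole FAP-gate populations 9 of the 11 were also higher in old PBS than in young PBS, beside 7.45% of all genes and 6 of the 8 universal FAP genes, and 3 of the 11 (Smoc2, Col15a1 and Gsn) were lower in old rMETRNL than in old PBS.

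The genes most like the 9 were named by the lower of their 2 folds in the old libraries. Among the highest were Col4a4, a basement membrane collagen, at 15.5-fold (6.78 to 39.8) in old PBS and 12.9-fold (6.62 to 24.9) in old rMETRNL, the transcription factor Hlf at 12.8-fold and 23.5-fold, and the methyltransferase Inmt at 15.9-fold and 12.1-fold. The potassium channel Kcnk2, the transporter Slco2b1 and Colgalt2, which glycosylates collagen, followed with lower folds of 10.6, 9.01 and 8.82. The 6 genes just named rested on fewer than 50 UMIs in member-rich cells of each old library.

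Others of the 20 had more UMIs. Smoc2, a matricellular calcium-binding protein, stood at 17.1 UMIs per member-rich cell against 2.08 in old PBS (8.23-fold, 7.62 to 8.89) and at 19 against 1.39 in old rMETRNL (13.7-fold). Cxcl14, a chemokine, stood at 22.9 against 4.2 and 28.2 against 3.39. Ccl11, an eosinophil chemokine, was 5.27-fold and 9.23-fold higher, and transferrin (Trf) 7.7-fold and 6.16-fold. Ltbp4, which holds latent TGF-beta in microfibrils, was 5.52-fold and 7.72-fold higher. G0s2, Ramp1, Abca8b, Bmp4, Gsn, Gpc3 and Pdzd2 were also among the 20. In young PBS, with only 19 member-rich cells, 19 of the 20 had a fold above 1 and Hlf had 0 UMIs in those cells. At a depth of 10000 UMIs all 20 were at least 2.04-fold higher in each library, but the young PBS intervals of Colgalt2 (0.398 to 6.8) and Pdzd2 (0.971 to 4.97) held 1. The same cells were sorted by the same 9 genes there, so these folds are no independent check. Only 7 of the 20 were among the first 20 at that depth.

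Whole FAP-gate levels of these 20 genes were given by the same libraries. Ltbp4 was at 48.9, 144 and 63.5 CPM, Kcnk2 at 9.26, 19.6 and 8.28 CPM, and Slco2b1 at 3.32, 10.9 and 5.56 CPM. Old PBS was highest for these 3 and for all others of the 20 except G0s2 and Gpc3. The 20 had been picked on cells of the old libraries. G0s2 (16.1, 10.9 and 14.3 CPM) and Gpc3 (53.3, 42.1 and 32.4 CPM) had old PBS below young PBS, although both were higher in member-rich cells.

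The partners of the matrix genes were taken from lists. Of the basement membrane and collagen VI genes, listed because Vwa1 and Hmcn2 belong to such matrix, 9 of 16 measured were higher in member-rich cells of old PBS and none lower. The counts were 10 higher and 1 lower of 16 in old rMETRNL. The 4 with most UMIs, Col6a3, Col6a1, Fbln2 and Col6a2, were close to even (0.913-fold to 1.21-fold in old PBS). The list's median was 1.67-fold and 1.85-fold against 0.948 and 0.908 over all genes. Between whole libraries Col6a6, Lama2, Lamc1, Col4a1 and Col4a2 were higher in old PBS and Col6a5 lower, and Col6a5, Col6a6 and Lama2 were lower in old rMETRNL than in old PBS. Of the fibrillin microfibril genes around Adamtsl2, 5 of 15 were higher and 5 lower in both old libraries. Fbn1, the fibril's main protein, was 0.643-fold and 0.641-fold, and Mfap4 was 1.86-fold and 1.91-fold.

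The glucocorticoid genes around Hsd11b1 were 12. Of the 11 measured, 5 were higher and 3 lower in member-rich cells of old PBS, and 7 higher and none lower in old rMETRNL, with medians of 1.32-fold and 1.68-fold. Dusp1, a phosphatase that glucocorticoids induce, was 2.58-fold and 2.27-fold, and Klf9, a transcription factor they induce, 1.9-fold and 1.84-fold. Dusp1 is also an immediate early gene. Sgk1, a kinase induced by them, was 0.802-fold and 0.831-fold, and Cdkn1a was 1.18-fold and 0.891-fold. Between whole libraries Nr3c2, the mineralocorticoid receptor, Zbtb16 and Klf9 passed the ratio upward in old PBS, none passed it downward, and Nr3c2 was lower in old rMETRNL. The list did not move as 1 block.

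For Alpl's pathway, 2 of 8 mineralisation and phosphate genes were higher and 3 lower in member-rich cells of old PBS, and 4 and 3 in old rMETRNL. Mgp, an inhibitor of calcification, had nearly all the UMIs of the list and was 1.9-fold and 2.89-fold higher. The bone transcription factor Runx2 was 0.459-fold and 0.283-fold. Between whole libraries Spp1 and Bglap passed the ratio downward in old PBS over young PBS and none upward. In old rMETRNL over old PBS Mgp passed it downward, at 2071 CPM against 4758, and Spp1 upward, at a ratio of 1.59. Of the carboxylesterase and lipase list 2 of 5 measured were higher and 3 lower in old PBS, and 2 and 2 of 4 in old rMETRNL, with medians of 0.647-fold and 1.07-fold. Lpl, the lipoprotein lipase, carried most of the list's UMIs and was 1.69-fold and 1.99-fold higher. Ces2g was at 0.577-fold and 0.479-fold. The relatives of Ces1d were scarce, with Ces1b, Ces1c, Ces1e, Ces1f, Ces1g and Ces2e at 0 UMIs in member-rich cells of every library. The VPS10 receptors and retromer genes around Sorl1 (medians 0.804 and 0.959) and the SHISA and CRISP relatives (0.929 and 0.852) stayed near the medians of all genes.

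Other FAP states were read in the same cells. Activated FAP genes were lower in member-rich cells of the old libraries, 9 of 10 for old PBS and 10 of 10 for old rMETRNL, among them Postn, a matrix protein of wounds, at 0.499-fold and 0.57-fold and the protease inhibitor Timp1 at 0.301-fold and 0.427-fold. For young PBS 6 of 10 activated FAP genes were lower, beside 40.1% of all genes, with Postn at 0.552-fold and Timp1 at 1.01-fold (0.76 to 1.31). Cell cycle genes were lower in 11 of 12 and 10 of 12, with Top2a at 0.0268-fold and 0.243-fold and Mki67 at 0.118-fold and 0.0579-fold. Pcna, at 1.42-fold and 1.14-fold, did not pass in either. In young PBS 12 of 12 were lower, 9 of them at 0 UMIs in 19 cells, where 40.1% of all genes were lower. Of the 15 ECM genes 6 were lower in each old library and 2 and 3 higher, with a median of 0.719-fold and 0.77-fold. Col1a1 was at 0.497-fold and 0.601-fold and Col3a1 at 0.722-fold and 0.949-fold, and the list's summed UMIs per cell were at 0.921-fold and 1.07-fold. Dcn and Lum, given above as resident FAP genes, are also on the ECM list, and their higher counts are part of that sum. Of the 8 universal FAP genes 3 were lower in each old library and 1 and 2 higher, with the semaphorin Sema3c at 0.294-fold and 0.397-fold and Pi16 at 1.03-fold and 1.29-fold. Of the 8 inflammatory FAP genes 2 were higher in each old library and 3 and 2 lower, and the chemokine Ccl2 was at 0.625-fold and 0.56-fold.

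Of the 12 genes of FAPs that answer nerve injury, 6 of the 10 measured were higher for old PBS and 8 for old rMETRNL, with the growth factor Bmp5 at 2.32-fold and 2.22-fold and Tnc at 0.247-fold and 0.501-fold. Nerve sheath markers were higher for 3 of 6 and 5 of 8 measured and lower for 0 and 2. Osr2 was at 2.11-fold and 1.74-fold, Sox9 at 0.798-fold and 1.11-fold and Slc2a1 at 0.737-fold and 0.299-fold. Immediate early and heat shock genes, which rise when tissue is dissociated, were higher in 9 of 10 in both old libraries but in 1 of 10 in young PBS. They summed to 72.7 UMIs per member-rich cell against 36.5 in old PBS, to 81.5 against 43.1 in old rMETRNL and to 46.1 against 43.2 in young PBS. Their part in the values above was not tested.

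**Figure D5:**
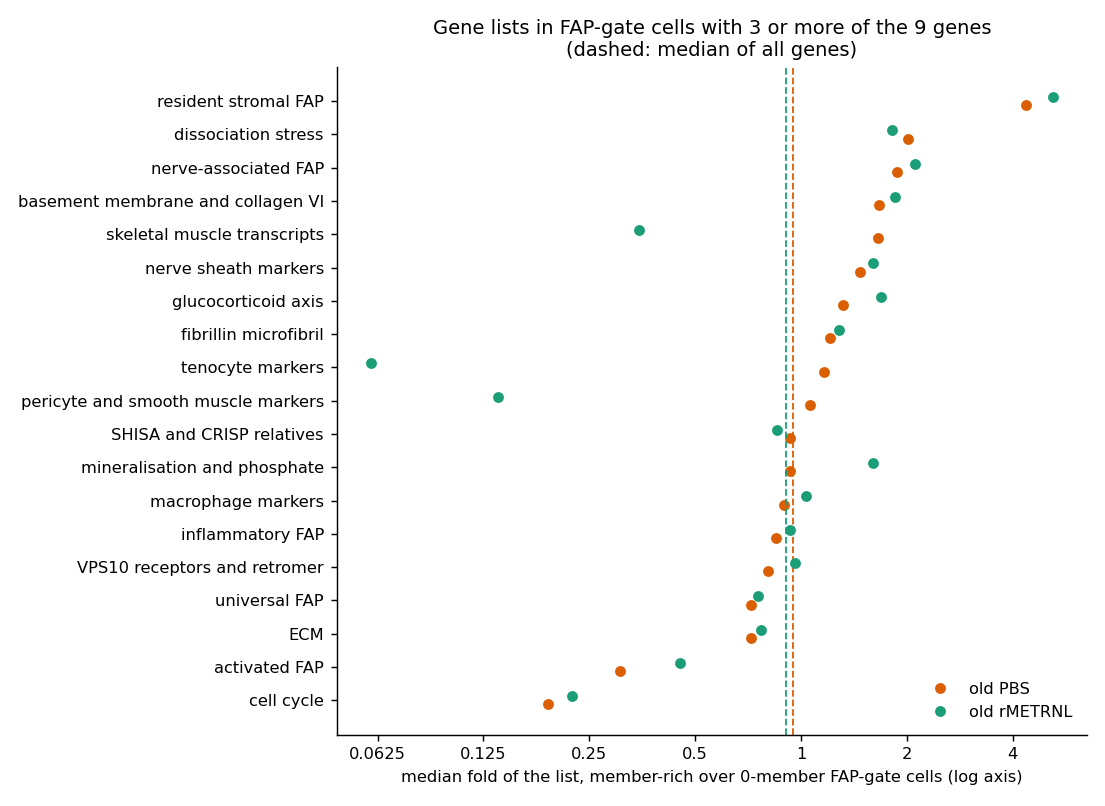
Median fold of each gene list with at least 5 measured genes, in member-rich over 0-member FAP-gate cells (log axis), for old PBS and old rMETRNL. Dashed lines mark the median of all genes, at 0.948 and 0.908. Resident stromal FAP genes stand highest and cell cycle genes lowest in old PBS.

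Markers of other cells were read because 6 of the 9 genes were higher elsewhere. Endothelial markers summed to 0, 0.049 and 0.1 UMIs per member-rich cell against 0.0586, 0.0336 and 0.044 in 0-member cells. The ratio of the sums had an interval that held 1 in each library. Cdh5, Kdr, Tie1 and Cldn5 had 0 UMIs each in member-rich cells of old PBS and 0 to 2 in 0-member cells, which is too few to compare, and Pecam1 was at 0 by the gate. Macrophage markers summed to 1.53, 1.52 and 1.68 UMIs per member-rich cell in young PBS, old PBS and old rMETRNL, and to 1.17, 1.41 and 1.55 in 0-member cells. Glial markers summed to 0.579, 0.167 and 0.1 against 0.0989, 0.083 and 0.0846, which is 5.86-fold (2.82 to 11), 2.01-fold (1.07 to 3.6) and 1.18-fold (0.373 to 2.89). Cdh19 had 6 UMIs in member-rich and 2 in 0-member cells of old PBS, and S100b was 6.54-fold higher in young PBS (2.86 to 13.2). Sox10 and Erbb3 were at 0 in member-rich cells of every library, and had at most 5 UMIs in 0-member cells. Pericyte and smooth muscle markers summed to 0.368, 0.931 and 0.5 against 1.22, 0.899 and 0.804, and the 48 UMIs of Rgs5 in old PBS were in 3 of the 102 cells, 33 of them in 1. Of the 5 measured in each library 1, 2 and 2 were higher and 4, 1 and 3 lower. Acta2, which is also on the activated FAP list, was at 0.228-fold, 0.0936-fold and 0.138-fold. Cspg4 was at 1.68-fold, 1.06-fold and 4.15-fold (2.37 to 6.92 in old rMETRNL). Tenocyte markers summed to 3.16, 3.47 and 4.02 against 3.18, 3.09 and 3.19, and Thbs4 gave 46, 274 and 194 of these UMIs. In young PBS 4 of 6 measured were lower, and in old rMETRNL 5 of 6, with Scx, Mkx, Kera and Chodl at 0 in both. In old PBS 1 of 5 was higher and 1 lower, with a median of 1.16-fold and none of the list at 0, and 34 of the 39 Tnmd UMIs were in 1 cell. Adipocyte markers summed to 0.0526, 0.225 and 0.1 against 0.247, 0.176 and 0.153. Car3 was 4.13-fold higher in old PBS (1.6 to 10.4), Adipoq had 2 UMIs in member-rich and 2 in 0-member cells of old rMETRNL, and Plin1, Cidec, Lep, Retn and Pparg were at 0 in member-rich cells of every library. In 0-member cells of old PBS the list had 89 UMIs, from Fabp4 (63), Car3 (12), Pparg (11) and Adipoq (3). Plin1, Cidec, Lep and Retn therefore cannot be compared there.

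Transcripts of fibres and red cells were read in the same way. Skeletal muscle transcripts summed to 0.316, 2.32 and 0.48 UMIs per member-rich cell against 0.622, 1.38 and 0.863 in 0-member cells. They were 1.69-fold in old PBS (1.45 to 1.96) and 0.556-fold in old rMETRNL (0.354 to 0.834), and the interval held 1 in young PBS. Of the 71 Acta1 UMIs in old PBS 50 were in 1 cell. Red cell transcripts summed to 0.105, 0.147 and 0.12 against 1.26, 0.113 and 0.0776. The part of these transcripts in the values of member-rich cells was not tested. Without FAP-gate cells that passed another gate, the share of member-rich cells in old PBS was 8.18 times that of young PBS and the ratio of old rMETRNL to old PBS was 0.374.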

How the data were processed

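The deposited matrices held UMI counts, not normalized, for each gene and barcode, and the authors made them with Cell Ranger (5.0.0 in the matrix headers, 5.0.0 and 3.1.0 in the submitters' processing notes) on mm10. The annotation release and the use of strand are not given in the sources used here. No column of the authors' comparisons was used. Cells needed at least 500 genes and under 10% mitochondrial UMIs. Classes were set by marker gates and not by clustering: FAPs by at least 2 Pdgfra UMIs with Ptprc and Pecam1 at 0, and 8 other classes by their own markers, with cells that passed several of these left out. Classes rebuilt in this way may differ from those of the study. No doublet caller was run, and 2 alternatives (without FAP-gate cells that passed another gate, and without the 5% with most UMIs) stand in for it.

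UMIs were summed per class and library and divided by the class total (CPM). Intervals at 95% were exact: Poisson for levels, Clopper-Pearson for shares, and conditional binomial for ratios. A ratio of at least 1.5-fold was called for genes with at least 20 UMIs over 2 libraries. Depth was made equal by thinning each cell to 5000 UMIs with a fixed seed. Member-rich cells had at least 3 of the 9 genes, and genes with at least 10 thinned UMIs were compared with cells that had none. With 1 library per group there was no replicate, no test and no p-value. The calculations were tested on simulated counts. Positions came from GENCODE M21 (99.8% of 32285 identifiers matched). Python 3.11.15, numpy 2.4.6, scipy 1.17.1, pandas 2.3.3 and matplotlib 3.10.9 were used.

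The 9 genes and the 24 gene lists were chosen with earlier results of these data known. Named were the 9 genes, the 20 genes with the highest lower fold of the 2 old libraries, up to 4 genes with most UMIs of each list, the gate markers, and all genes of a count of 5 or fewer. Markers listed at 0 and the scarce carboxylesterases were named after their values were seen. Some genes that this rule names are not reported here.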

Additional observations from a re-analysis of the deposited data

Results flagged for a closer look

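Above, member-rich cells were counted only in the FAP gate and in macrophages and monocytes. Outside the FAP gate, 2 groups of cells with Pdgfra also held member-rich cells in old PBS above the young PBS level. Among retained cells with at least 2 Pdgfra UMIs that also had a Ptprc or Pecam1 UMI, 25 of 398 were member-rich in old PBS (6.28%, 4.11 to 9.13), 3 of 459 in young PBS (0.654%, 0.135 to 1.9) and 11 of 485 in old rMETRNL (2.27%, 1.14 to 4.02). Among those with 1 Pdgfra UMI and none of Ptprc and Pecam1, 9 of 96 were member-rich in old PBS (9.38%, 4.38 to 17.1), 4 of 142 in old rMETRNL (2.82%, 0.773 to 7.06) and 0 of 182 in young PBS, where a count of 0 allows up to 1.65%, taken as 3 cells of the total (exact upper limit 2.01%). All cells were thinned to 5000 UMIs. These differences were not tested, since each group is 1 library.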

How the results depend on the processing

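No paired analysis was possible because each group is 1 library, and for the same reason no replicate could be left out. No ratio past 1.5-fold changed direction, but 3 smaller ratios of old rMETRNL to young PBS crossed 1 under some alternatives (Alpl up to 1.15, Hsd11b1 down to 0.99, Shisa3 down to 0.87). The share of member-rich cells in old PBS over young PBS, 6.77 as reported, was 14.5 when cells were thinned to 2000 UMIs, 2.55 without thinning and 3.29 at 2 of the 9 genes. That of old rMETRNL over young PBS, 2.57 as reported, was 4.82 at 2000 UMIs, 1.3 at 10000 UMIs (0.849 to 2) and 1.21 without thinning, so the depth decides whether its interval holds 1. At a minimum of 100 UMIs the genes past 1.5-fold in old rMETRNL over young PBS went from 3 to 1 (Hmcn2), and Shisa3 dropped out of the other 2 contrasts, which left 8. At 10000 UMIs the sums of pairs seen together over expected were 1.63, 1.96 and 1.99 in young PBS, old PBS and old rMETRNL, against 2.11, 2.4 and 3.12, and 7 of the 20 most like genes stayed among the first 20. By the mean of per-cell CPM 4 rather than 3 of the genes were highest in FAP-gate cells, and the Alpl ratio of old PBS to young PBS was 3.71, that of Sorl1 6.36, and the Sorl1 ratio of old rMETRNL to young PBS 3.05. With the gate at 4 Pdgfra UMIs the Shisa3 ratio of old PBS to young PBS was 4.55, the Ces1d ratio of old rMETRNL to young PBS was 1.88 and that of Hmcn2 1.35, under the 1.5-fold limit. Of 243 values of level, 231 stayed within their interval. Over all genes, the number higher in old PBS than in young PBS was 550 at a minimum of 100 UMIs and 3250 with none, against 1101, and the number lower 623 and 3725, against 1256. For old rMETRNL over old PBS they were 303 and 3096 higher, against 710, and 299 and 3003 lower, against 870. For old rMETRNL over young PBS they were 297 and 3167 higher, against 707, and 397 and 3345 lower, against 983. Leaving out the cell richest in each gene was chosen after seeing the data. Alpl, Ces1d, Shisa3 and Sorl1 had under 100 UMIs in FAP-gate cells of each library, which limits their precision.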

Other observations

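Other classes held few member-rich cells at 5000 UMIs. Endothelium, where Alpl and Vwa1 were higher than in FAPs, had 1 of 501, 2 of 392 and 0 of 563 cells, in the order young PBS, old PBS, old rMETRNL. Tenocytes, where Crispld2 was highest, had 1 of 107, 1 of 83 and 0 of 126. T and NK cells, where Hsd11b1 and Sorl1 were highest, had 0 of 90, 0 of 96 and 0 of 47, and the last allows up to 6.38%, taken as 3 cells of the total (exact upper limit 7.55%). Cells that passed no gate had 5 of 1110 (0.45%), 12 of 899 (1.33%) and 10 of 1153 (0.867%).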
